A study of Mus musculus with 4 samples.

Results

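Histone-modifying enzymes add or remove the acetyl and methyl groups that mark chromatin, and 75 of the 21887 protein-coding mouse genes compared here carry their names. They were chosen by symbol from a RefSeq gene table: every gene whose symbol begins with Kdm, Hdac, Kat and a digit, Setd, Sirt, Prmt, Ehmt, Suv39h, Kmt5, Nsd, Ezh or Dot1l, without the H3K4 methyltransferases Setd1a and Setd1b. The rule uses the symbol and no peak. The letters also took in Nsdhl, a gene of cholesterol synthesis, and Ezhip, an inhibitor of the EZH enzymes, which are counted as members but set apart, leaving 73 genes of the enzyme families. The study profiled open chromatin by ATAC-seq, which maps the DNA that the transposase Tn5 can reach, in pachytene spermatocytes of mouse testis, from a Znhit1 knockout (Znhit1_KO) and from controls (CTRL). ZNHIT1 is a subunit of the SRCAP complex, which exchanges H2A for H2A.Z in nucleosomes. The titles carry the tag P35, and the labels give neither the knockout allele, any Cre driver, the controls' genotype nor the number of animals per library. Of 4 libraries, 2 per genotype, the values used here are 2 peak lists, 1 per genotype, recorded for the first library of each.

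Lysine acetylation is written by acetyltransferases (Kat) and removed by zinc-dependent deacetylases (Hdac) and NAD-dependent sirtuins (Sirt). Lysine methylation is written by SET-domain enzymes and by DOT1L and removed by amine oxidase (Kdm1) and JmjC (other Kdm) demethylases, and the Prmt enzymes methylate arginine. In male meiosis H3K9 methylation marks pericentric heterochromatin and the silenced sex chromosomes, and the H3K9 enzymes SETDB1, SUV39H2 and G9a act in meiotic prophase.

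Each list gives positions alone, with no height, score or summit, so a gene either had a called peak or did not. The knockout list held 21004 separate intervals with a median width of 352 bp, and the control list 15376 with a median of 427 bp. The sources used here do not give the reads behind either list, nor whether it also holds reads of the genotype's second library, for which no list of its own was used here. With 1 list per genotype no difference below has a replicate check or a p-value. Ranges in brackets are Wilson 95% intervals, for counting error alone. A gene-end peak of Znhit1 was called in each list, which checks neither label, since a peak at a gene end says nothing about a deletion elsewhere in the gene. The spermatocyte genes Sycp1, Sycp3, Hormad1, Mybl1, Piwil1 and Hspa2 each had a peak at a gene end in each of the lists, and the Sertoli cell genes Sox9, Wt1 and Amh had none in either. Over all protein-coding genes, 28.6% had one in both lists and 57.0% in neither, so these few genes do not measure the purity of the cells.

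Most genes of these enzymes had an accessible end in both genotypes. A gene-end peak is an interval within 1 kb of either annotated end of the gene, and 45 of the 75 members (60.0%, 48.7 to 70.3) had one in both lists, against 28.6% of all protein-coding genes. A further 14 (18.7%, 11.5 to 28.9) were knockout-only, with a gene-end peak in the knockout list and none in the control list, against 9.81% of all genes. Hdac7 was the single control-only member (1.33%, 0.236 to 7.17), against 4.66% of all genes. The other 15 had none in either list, against 57.0% of all genes. A gene-end peak in at least 1 list was thus found at 60 members (80.0%), against 43.0% of all genes. Of those 60 members 75.0% were in both lists, against 66.4% of the genes with any such peak. Knockout-only members made up 23.3% of the 60 (14.4 to 35.4), against 22.8%, and the control-only member 1.67% (0.295 to 8.86), against 10.8%. Read against genes with any peak, the knockout-only share of the members was therefore near the background. Without Nsdhl and Ezhip the 73 genes gave 45 in both lists, 13 knockout-only, 1 control-only and 14 in neither.

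**Figure D1:**
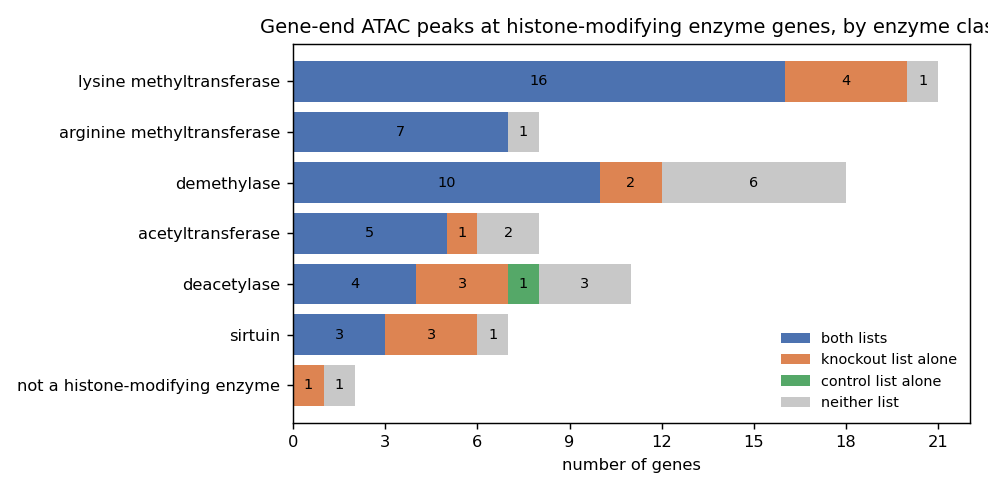
Number of genes (horizontal axis) in each enzyme class, split by where a gene-end peak was called. Genes placed with the lysine methyltransferases by symbol were in both lists in 16 of 21 cases and deacetylases in 4 of 11, against 28.6% of all genes. The single control-only gene is a deacetylase.

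The imbalance between knockout-only and control-only members depended on intervals that stood on a single line. MACS2 can write an interval once per summit, and many intervals stood on several lines, although the lists do not say why. With both lists limited to intervals on at least 2 lines, 29 members (38.7%) were in both lists, against 15.9% of all genes, and 29 in neither, against 69.9%. Knockout-only members then numbered 8 (10.7%), against 7.71% of all genes, and control-only members 9 (12.0%), against 6.56%. The knockout-only ones were Ehmt1, Kdm8, Nsd1, Nsdhl, Sirt4 and Sirt7, joined by Kat6a and Setdb1. The control-only ones were Dot1l, Hdac1, Hdac3, Kdm1a, Kdm1b, Kdm4d, Kmt5c, Prmt1 and Sirt2, all of which also had a knockout interval listed once. The excess of knockout-only members was therefore absent from this counting, where 8 (5.50 to 19.7%) stood beside 9 (6.44 to 21.3%). Over all genes the knockout-only share stayed the larger, 7.71% beside 6.56%. Under every planned counting of all 75 genes, 28 members stayed in both lists.

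**Figure D2:**
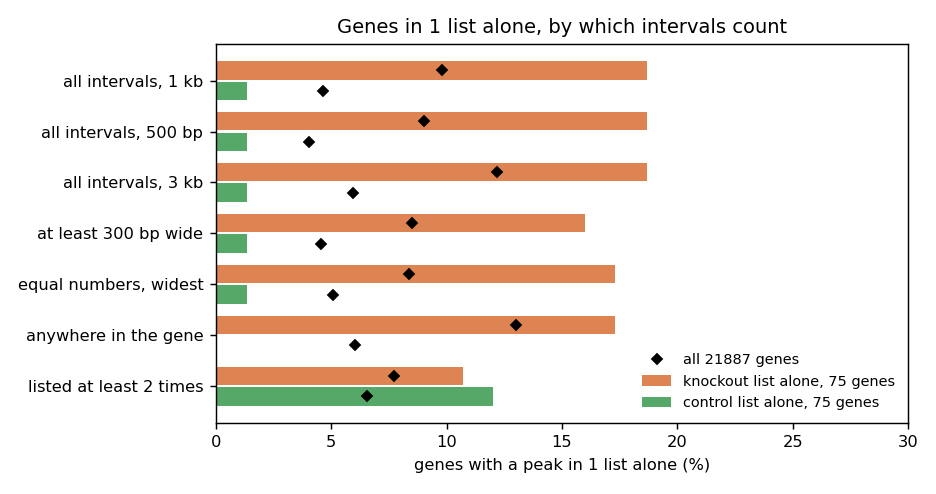
Percentage of the 75 members (bars) and of all 21887 genes (diamonds) with a peak in the knockout list alone or the control list alone, for 7 ways of choosing intervals or windows. The knockout bar is the longer in each except the last, intervals listed at least 2 times, where it is 10.7% and the control bar 12.0%.

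The knockout-only members begin with the H3K9 enzyme pair G9a and GLP. Ehmt1, which encodes GLP, had a knockout peak of 986 bp over its start (chr2:24918820-24919805, on 3 lines), and the nearest control peak lay 29478 bp away. Ehmt2, which encodes its partner G9a, had a peak of 324 bp (chr17:34899290-34899613, on 1 line) that began 827 bp inside the gene. The genes of both subunits were thus without a control peak at their ends, as were most genes, since 7274 of all 21887 had one. The Ehmt2 interval lay near the limit of the window and was gone with a window of 500 bp.

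To show what lies under such peaks, the 250 bases before the annotated start are given for the 4 members with the widest peak in 1 list alone that overlaps the promoter window in the RefSeq promoter table, and for the X-linked Kdm5c and Suv39h1, with a peak in both lists and in neither. They are RefSeq sequence of GRCm38.p6, read 5′ to 3′ on the gene's strand, and capitals mark matches to any of 6 motifs on either strand: the GC box GGGCGG, the CCAAT box, the ETS core CCGGAA, the cAMP element core TGACGT, the MYB core AACNGNC or AACNGNG, and the E-box CACGTG. No motif contains another, and matches may share letters.
Ehmt1 (chr2:24919610-24919859, minus strand): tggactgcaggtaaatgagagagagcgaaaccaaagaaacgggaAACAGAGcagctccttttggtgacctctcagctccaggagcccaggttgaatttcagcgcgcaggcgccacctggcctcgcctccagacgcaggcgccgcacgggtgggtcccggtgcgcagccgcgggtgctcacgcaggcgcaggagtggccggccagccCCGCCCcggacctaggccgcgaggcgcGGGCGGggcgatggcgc
Hdac6 (chrX:7947890-7948139, minus strand): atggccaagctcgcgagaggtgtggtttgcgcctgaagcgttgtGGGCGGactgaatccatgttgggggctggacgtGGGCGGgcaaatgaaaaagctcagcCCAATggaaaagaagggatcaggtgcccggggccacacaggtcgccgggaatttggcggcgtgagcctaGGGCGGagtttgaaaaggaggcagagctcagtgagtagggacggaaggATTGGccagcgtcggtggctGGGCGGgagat
Sirt5 (chr13:43365285-43365534, plus strand): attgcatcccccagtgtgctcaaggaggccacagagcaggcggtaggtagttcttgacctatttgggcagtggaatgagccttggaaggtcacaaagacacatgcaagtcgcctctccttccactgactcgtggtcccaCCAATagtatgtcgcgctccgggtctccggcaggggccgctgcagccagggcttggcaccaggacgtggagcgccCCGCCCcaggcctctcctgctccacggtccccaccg
Nsdhl (chrX:72918271-72918520, plus strand): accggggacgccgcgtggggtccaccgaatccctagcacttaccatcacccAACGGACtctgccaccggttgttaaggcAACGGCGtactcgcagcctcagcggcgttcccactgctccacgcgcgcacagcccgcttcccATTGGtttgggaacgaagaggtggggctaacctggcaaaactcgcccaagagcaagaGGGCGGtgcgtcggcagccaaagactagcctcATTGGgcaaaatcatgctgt
Kdm5c (chrX:152232977-152233226, plus strand): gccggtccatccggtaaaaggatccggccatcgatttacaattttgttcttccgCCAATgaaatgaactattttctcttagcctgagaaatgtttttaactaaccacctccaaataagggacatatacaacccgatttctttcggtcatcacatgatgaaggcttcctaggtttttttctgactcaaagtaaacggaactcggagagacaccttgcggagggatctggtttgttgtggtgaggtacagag
Suv39h1 (chrX:8074761-8075010, minus strand): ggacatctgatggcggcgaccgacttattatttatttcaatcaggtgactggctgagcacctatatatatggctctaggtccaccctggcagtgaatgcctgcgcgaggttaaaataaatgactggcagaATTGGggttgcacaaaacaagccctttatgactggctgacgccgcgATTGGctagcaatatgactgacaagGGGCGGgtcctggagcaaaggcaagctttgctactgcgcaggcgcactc
The knockout peak covered 196 of the 250 bases at Ehmt1, all 250 at Hdac6, 114 at Sirt5 and 149 at Nsdhl, and no control peak touched them. At Kdm5c the knockout peak covered all 250 bases and the control peak 48. GC boxes numbered 2 at Ehmt1, 4 at Hdac6 and 1 each at Sirt5, Nsdhl and Suv39h1, and Kdm5c had none. The Suv39h1 stretch, with no peak, held a GC box and 2 CCAAT boxes, so letters of this kind occurred with and without a called peak.

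Nsd1, which writes H3K36 dimethylation, had the widest of the knockout-only peaks, but its control peak began just outside the window. The knockout peak spanned 1513 bp (chr13:55210106-55211618, on 5 lines). A control peak of 593 bp (chr13:55210801-55211393, on 3 lines) lay wholly inside it and began 1019 bp from the gene end, so Nsd1 was accessible in both lists at the same site. Setd7, a methyltransferase of H3K4 and of non-histone proteins, had a knockout peak of 308 bp inside the gene (chr3:51560104-51560411), and the nearest control peak was 75638 bp away.

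Of the 11 zinc-dependent deacetylases, 4 were in both lists (36.4%, against 28.6% of all genes) and 3 in neither (27.3%, against 57.0%). Another 3 were knockout-only (27.3%, against 9.81%) and 1 was control-only (9.09%, against 4.66%). With intervals on at least 2 lines, 0 were knockout-only (against 7.71% of all genes), 2 control-only (6.56%) and 8 in neither (69.9%). With intervals of at least 300 bp, 1 was knockout-only (against 8.52% of all genes) and 6 were in neither (60.4%). Hdac6, the X-linked tubulin deacetylase, had a peak of 645 bp over its start (chrX:7947580-7948224, on 1 line). Hdac5, a class IIa enzyme shuttling between nucleus and cytoplasm, had one of 260 bp over its start (chr11:102230136-102230395). The class IIa gene Hdac4 had a knockout interval of 193 bp beyond its 3' end (chr1:91928317-91928509), 267289 bp from the start. Over the start that the promoter table gives inside the Hdac4 gene both lists held a peak, of 904 bp in the knockout (chr1:92180152-92181055) and 896 bp in the control (chr1:92180237-92181132). Hdac7, also class IIa, had a control interval of 192 bp (chr15:97843984-97844175), on 1 line and 422.5 bp from the start by its centre, and 2 knockout intervals inside the gene away from its ends. By gene ends none of the 4 class IIa genes was therefore in both lists, where 28.6% of all genes were. Hdac9, the last of them, had none in either. With peaks anywhere in the gene, Hdac4 and Hdac7 were in both lists.

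Of the 7 sirtuin genes, 3 were in both lists (42.9%, 15.8 to 75.0, against 28.6% of all genes). Another 3 were knockout-only (42.9%, 15.8 to 75.0, against 9.81%) and 1 was in neither (14.3%, against 57.0%). Sirt4 and Sirt5, which act in mitochondria, had knockout peaks of 610 bp (chr5:115489852-115490461) and 481 bp (chr13:43365421-43365901). The Sirt4 peak lay over the outermost gene end, and the start in the promoter table lay further inside the gene and had no peak. The Sirt7 peak of 556 bp (chr11:120617579-120618134) lay past the 3' end, 7157.5 bp from the start of this nucleolar sirtuin, and also lay within the window of Pcyt2. Sirt1 (739 and 863 bp in knockout and control), Sirt2 (833 and 747 bp) and Sirt3 (1020 and 1173 bp) were in both lists. Sirt6, which deacetylates histone H3 at telomeres and damaged DNA, was without a peak at its ends and inside.

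The remaining knockout-only genes encode an acetyltransferase, JmjC proteins and Nsdhl. Kat2a, the GCN5 catalytic subunit of SAGA, had a peak of 457 bp that began 328 bp inside the gene (chr11:100711701-100712157). Its paralogue Kat2b had none in either list. Kdm8, a JmjC-domain protein, had a peak of 817 bp (chr7:125444804-125445620, on 2 lines). Kdm7a, a demethylase of H3K9 and H3K27, had one of 345 bp just before its start (chr6:39206886-39207230). Nsdhl had one of 395 bp (chrX:72918025-72918419, on 2 lines) shared with the end of Cetn2, a centrin gene.

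The knockout-only peaks were narrower than knockout peaks at members in both lists, as over all genes, and often lay beside the outermost gene start. Their median width over the 14 members was 469 bp, against 769 bp at the 45 members in both lists. Over all genes it was 421 bp at the 2147 knockout-only genes and 758 bp at the 6255 in both lists. Of the 14 members, 6 had a peak on at least 2 lines (42.9%, against 34.7% of the 2147). Of the 13 with a strand in the promoter table, the peak covered the outermost gene start at 4 (Ehmt1, Hdac5, Hdac6 and Sirt4). Its centre lay within 1 kb of that start at 11. The Sirt5 peak missed the outermost start but covered the start that the promoter table gives. Of the 14 peaks, 1 overlapped a control peak (Nsd1), and 2 lay within the window of another gene's end (Nsdhl and Sirt7). Neither count was set beside one over all knockout-only genes. Of the 45 members in both lists, 16 had a peak that also lay within the window of another gene's end, so that the peak cannot be given to the enzyme gene alone.

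**Figure D3:**
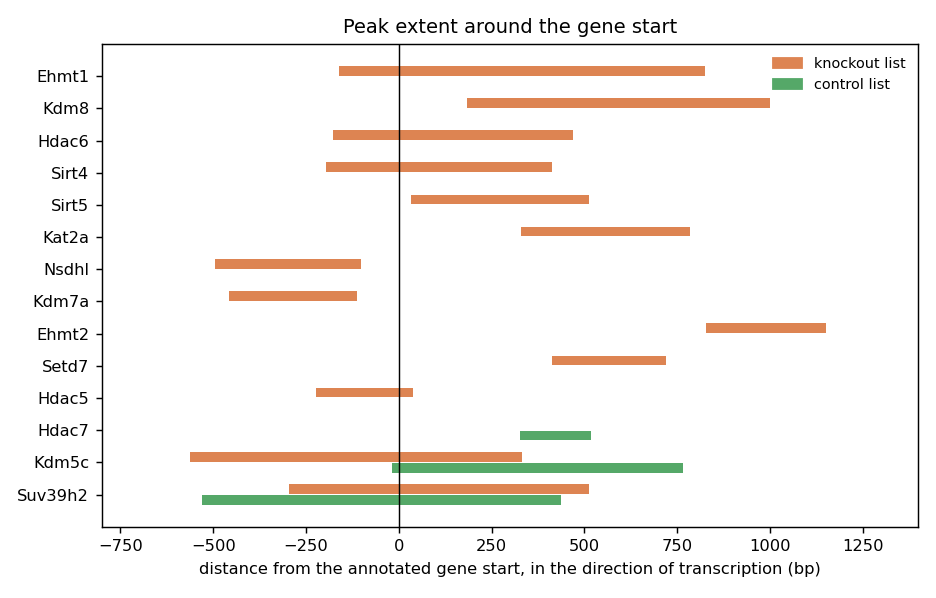
Extent of the called peaks relative to the annotated gene start, in bp along the direction of transcription. Shown are members in 1 list alone that have a strand in the promoter table and a peak near the start. Kdm5c and Suv39h2, which are in both lists, are added, and Nsd1, without a strand there, is left out. Of the knockout-only peaks, 4 cross the start at 0 and most others lie inside the gene.

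Of the 21 genes placed with the lysine methyltransferases by symbol, 16 were in both lists (76.2%, 54.9 to 89.4), against 28.6% of all genes. Of the 20 with any gene-end peak 80.0% were in both, against 66.4%. Of the 21, only the X-linked H3K9 enzyme gene Suv39h1 had no peak. Ezh1 and Ezh2, the catalytic subunits of PRC2 that write H3K27 methylation, were in both. Ezh2 had the lowest ratio of knockout to control width of the 45 members in both lists, -1.11 on the log2 scale. Its control peak was 1643 bp wide (chr6:47594147-47595789, on 4 lines) and its knockout peak 762 bp (chr6:47594527-47595288, on 2 lines). Ezh1 had peaks of 577 and 666 bp, the knockout given first here and in the pairs that follow. The H4K20 enzymes Kmt5a (871 and 683 bp), Kmt5b (1626 and 960 bp) and Kmt5c (712 and 1093 bp) were in both lists. Their log2 ratios were 0.35, 0.76 and -0.62. At Kmt5b another control interval, of 343 bp (chr19:3768636-3768978), lay outside the window and wholly inside the knockout peak. The Kmt5b ratio therefore leaves out part of what was called there in the control. Dot1l, the H3K79 enzyme, had peaks of 580 and 514 bp.

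The H3K36 and H3K9 enzymes and the other SET-domain genes gave the rest of this class. Setd2, which writes H3K36 trimethylation, had wide peaks in both lists, 1362 bp wide for the knockout (chr9:110531938-110533299) and 1085 bp in the control (chr9:110532204-110533288). Nsd2 had 624 and 428 bp. At Nsd3 the widest knockout peak, of 673 bp, lay at the far end of the gene beside Plpp5, while a knockout peak of 511 bp and the control peak of 1131 bp lay at the near end, so its log2 ratio of -0.75 compares different sites. The H3K9 enzymes Setdb1 (751 and 556 bp), Setdb2 (769 and 779 bp) and Suv39h2 (810 and 969 bp) all had peaks over the start in both lists. Setd3, an actin histidine methyltransferase placed here by its symbol alone, had a control peak of 1751 bp. The knockout list held 1 interval of 1172 bp there and another of 414 bp. Setd5 (1332 and 972 bp), Setd4 (715 and 675 bp) and Setd6 (607 and 786 bp) were also in both.

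All arginine methyltransferase genes but Prmt8, a gene known for its expression in brain, had a peak in both lists. That was 7 of 8 (87.5%, 52.9 to 97.8), against 28.6% of all genes. Prmt5, which makes symmetric dimethylarginine and modifies PIWI proteins in germ cells, had peaks of nearly equal width, 697 bp in the knockout (chr14:54517141-54517837) and 707 bp in the control (chr14:54517186-54517892). Prmt1, the main enzyme of asymmetric dimethylation, had 984 and 887 bp. The knockout peak was the wider at 5 of these 7 genes, most at Prmt3 (955 and 577 bp, log2 ratio 0.73) and Prmt6 (486 and 321 bp, 0.60). Prmt2 (516 and 549 bp), Prmt7 (1042 and 915 bp) and Prmt9 (462 and 381 bp) made up the class. Counting only intervals on at least 2 lines, 4 of the 8 were in both lists, against 15.9% of all genes. Of the others, 1 was then control-only (against 6.56%) and 3 were in neither (against 69.9%).

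Of the 18 demethylase genes, 10 were in both lists (55.6%, 33.7 to 75.4, against 28.6% of all genes). Knockout-only were 2 (11.1%, against 9.81%), and 6 were in neither (33.3%, against 57.0%). Both amine oxidase genes were in both, Kdm1a, which encodes LSD1, with 336 and 461 bp and Kdm1b with 821 and 1026 bp. Kdm2a, an H3K36 demethylase that binds unmethylated CG sites, had the widest peak of any member in each list, 1769 bp in the knockout (chr19:4396559-4398327, on 5 lines) and 2032 bp in the control (chr19:4396552-4398583, on 6 lines). Kdm3a, an H3K9 demethylase needed in spermatids, had 1179 and 1097 bp, and Kdm4d, an H3K9 demethylase of the testis, 432 and 639 bp in an interval shared with Cwc15. At Kdm3b the knockout peak was 1018 bp wide and the control peak 493 bp, the largest ratio of the 45 members in both lists (1.05 on the log2 scale). Kdm4a (1093 and 779 bp), Kdm4b (792 and 734 bp) and Kdm5a (948 and 760 bp) completed those in both, together with the X-linked Kdm5c. Counting only intervals on at least 2 lines, 6 of the 18 were in both lists, against 15.9% of all genes. Knockout-only was then 1 (against 7.71%), 3 were control-only (against 6.56%) and 8 were in neither (against 69.9%).

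Acetyltransferase genes had a peak in both lists at 5 of 8 (62.5%, 30.6 to 86.3), against 28.6% of all genes. Kat6a, which encodes MOZ, was the single member of the 45 whose peaks did not overlap between the lists: the knockout peak of 765 bp (chr8:22859098-22859862) and the control peak of 381 bp (chr8:22860034-22860414) lay 172 bp apart. No count of such overlap over all genes in both lists was set beside this one. Kat6b, its paralogue, had peaks of 1303 bp and 1367 bp that overlapped fully but began 855 and 803 bp inside the gene. Kat7 (1126 and 1066 bp), Kat8, the MOF enzyme of H4K16 (619 and 473 bp), and Kat14 (565 and 863 bp) had peaks over the start. Among the deacetylases in both lists, the class I genes Hdac1 (763 and 710 bp), Hdac2 (945 and 1152 bp) and Hdac3 (283 and 426 bp) were accompanied by Hdac10 (368 and 499 bp). The widest Hdac3 intervals lay at different sites, and the control interval that overlapped the knockout interval of 283 bp was 280 bp wide.

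Peak widths at the 45 members in both lists did not move to one side. On the log2 scale, knockout width over control width had a median of 0.08 (quartiles -0.29 and 0.33), and a median of 0.04 over the 6255 genes in both lists (quartiles -0.29 and 0.40). The knockout peak was the wider at 24 members (53.3%) and the control peak at 21, and over all genes the knockout peak was the wider at 53.2%. The ratio was above 1 at 2 of the 45 members, Kdm3b and Kat6a, and below -1 at 1, Ezh2. Over the 6255 genes it was above 1 at 403 and below -1 at 231, so ratios of this size were not particular to the members. The Kat6a ratio compares intervals that did not overlap. Of the 35 members with a strand in the promoter table, 30 had the outermost gene start inside the peak in both lists, and the median centre of the knockout peaks lay 103.5 bp past the start and that of the control peaks 117.5 bp.

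**Figure D4:**
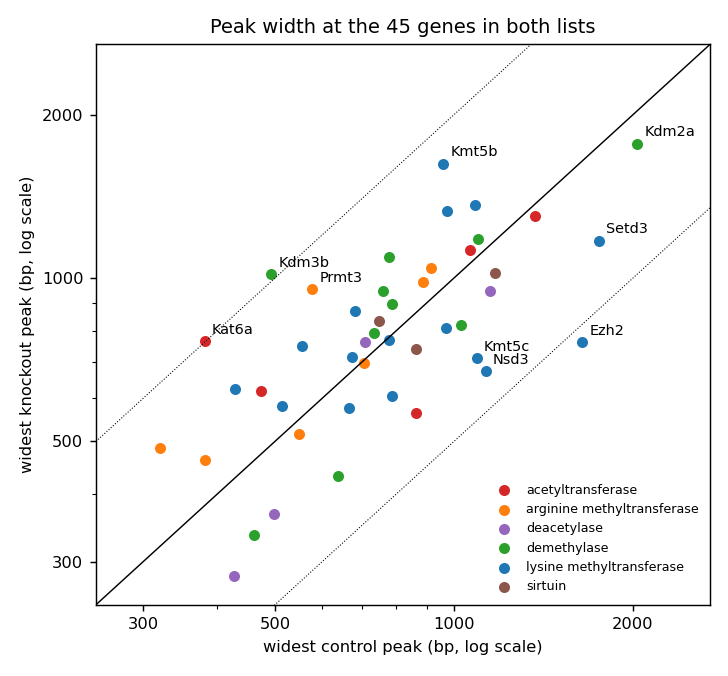
Widest knockout peak against widest control peak, in bp on log scales, at the 45 members with a peak in both lists, coloured by enzyme class. The solid line is equal width and the dotted lines a log2 ratio of 1 and -1. Points lie on both sides of the line, with Ezh2 below the lower dotted line and Kdm3b and Kat6a at the upper.

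On the X chromosome, which is silenced at this stage, 1 of 7 members was in both lists, 2 were knockout-only and 4 were in neither. Of all 966 X-linked genes, 10.4% had a gene-end peak in at least 1 list: 4.04% were in both, 4.14% knockout-only and 2.17% control-only, and 89.6% had none. The member in both was Kdm5c, an H3K4 demethylase known to escape X inactivation in females, with 894 bp in the knockout (chrX:152232635-152233528) and 786 bp in the control (chrX:152233179-152233964). The knockout-only genes were Hdac6 and Nsdhl. Hdac8, Suv39h1 and Ezhip had no peak in either list, at their ends or inside. Kdm6a, an H3K27 demethylase, had none within the window but peaks of 1255 bp (chrX:18162047-18163301) and 672 bp (chrX:18162177-18162848) in knockout and control over the start that the promoter table gives inside the gene. The Y-linked Kdm5d, a paralogue of Kdm5c, had no peak. On the autosomes 44 of 67 members (65.7%) were in both lists, against 30.1% of autosomal genes. Knockout-only were 12 of the 67 (17.9%), against 10.2%, control-only was 1, against 4.83%, and 10 had none, against 54.9%. Counting either list, 45.1% of autosomal genes had a gene-end peak.

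For several of the 15 members without a gene-end peak the accessible site lay at or near another start of the gene. Kat5, the TIP60 acetyltransferase, had peaks of 967 bp (chr19:5609467-5610433) and 779 bp (chr19:5609611-5610389) over a RefSeq start that lies 1462 bp inside the gene. Inside the gene Kdm2b had overlapping peaks of 401 and 567 bp, and Kdm4c overlapping peaks of 622 and 391 bp. With Kdm6a, these 4 members had a peak in both lists when any start in the promoter table was used. Inside the gene, Hdac11, Kdm5b and Kdm6b had knockout and control intervals that did not overlap, and Prmt8 had knockout intervals and no control interval. Nothing was called at the ends of or inside Ezhip, Hdac8, Hdac9, Kat2b, Kdm5d, Sirt6 and Suv39h1. Of all genes without a gene-end peak, 9.67% had an inside peak in both lists, 8.94% were knockout-only inside, 4.65% control-only, and 76.7% had none, so that 23.3% had one in at least 1 list. For these 15 members the counts were 7, 1, 0 and 7. The intervals nearest the limit of the window were those of Ehmt2 at 827 bp and Kat6b at 803 and 855 bp inside it, and of Nsd1 at 1019 bp and Kdm5b at 1089 bp outside it, both in the control list.

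Intervals inside the genes, away from both ends, were more numerous in the knockout list. There were 34 in 25 members in the knockout and 15 in 12 in the control, that is in 33.3% and 16.0% of members. Over all protein-coding genes, 20.7% held such an interval in the knockout list and 15.6% in the control list. Of the 34 knockout intervals 5 overlapped a control interval, and of the 15 control intervals 7 overlapped a knockout interval. Among the 7 were the control intervals of Kmt5b and Nsd1, which overlapped knockout peaks at the gene ends. No such share over all genes was set beside these counts, so they do not show a trait of the members. The median widths of the inside intervals were 297 bp in the knockout list and 391 bp in the control list. Nsd3 held 3 of the knockout intervals and none from the control, and Hdac4 the most in the control, 3, of which the peak at its internal start was shared.

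CG dinucleotides were counted in promoter windows by where a gene-end peak was called. RefSeq promoter windows, from 250 bases before to 50 after the start, were at hand for 63 of the 75 members and 17492 genes. The median count of CG was 23 in the 35 members in both lists (24 in all such genes), 20 in the 13 knockout-only members (18) and 16 in the 14 in neither (5). Of these last, the Kat5 and Kdm6a windows lay more than 1 kb inside the gene and under the inside peaks of both lists given above. That class is therefore not one of windows without a peak. Among the knockout-only members, the Hdac4 window lay under peaks of both lists. The Ehmt2, Kat2a, Kdm8, Setd7, Sirt4 and Sirt7 windows lay outside the knockout peak. Windows outside the peaks also occurred among members in both lists, as at Setd5 (1 CG). The classes thus do not compare sequence under called peaks. Kdm7a had the most, 65, and Kdm4c and Hdac9 had 0 at the start nearest the gene end. The GC box was present in 58.7% of the 63 windows and 46.3% of the 17492, the CCAAT box in 49.2% and 39.2%, and the ETS core in 28.6% and 19.1%. The MYB core was present in 65.1% and 57.0%, the cAMP element core in 15.9% and 8.71%, and the E-box in 11.1% and 7.91%. In the 35 members in both lists the GC box share was 60.0%, against 71.2% of the 5202 genes of that class. It was 76.9% in the 13 knockout-only members, against 63.2% of such genes, and 42.9% in the 14 in neither list, against 29.7%.

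**Figure D5:**
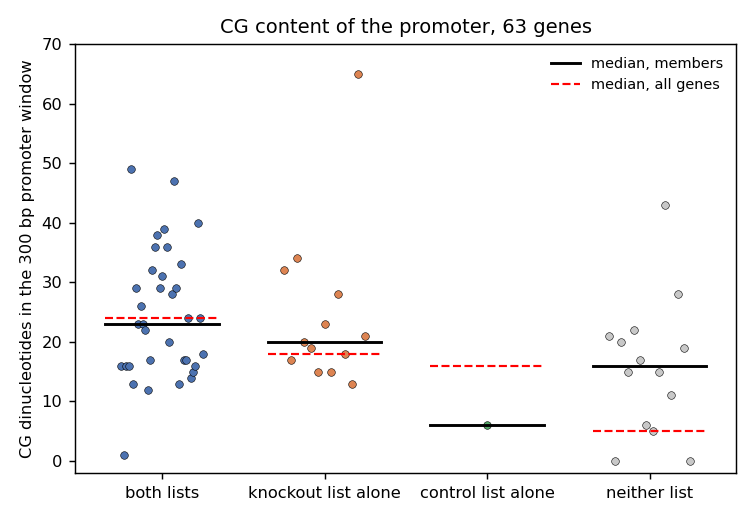
Number of CG dinucleotides in the promoter window (vertical axis) of each of 63 members, by where a gene-end peak was called, with the median of the members (black) and of all genes of that class (red, dashed). The medians lie close together for the first 2 classes, and for genes in neither list that of the members is 16 and that of all genes 5.

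Most genes of the complexes that hold these enzymes, and of related enzymes, were accessible in both genotypes as well. Of 107 such genes, 78 (72.9%) were in both lists, beside 60.0% of the members, a difference that was not tested. Knockout-only were 7 (6.54%), control-only 3 (2.80%), and 19 (17.8%) had no gene-end peak. Over all protein-coding genes the shares were 28.6% in both lists, 9.81% knockout-only, 4.66% control-only and 57.0% in neither, and the counts of the 4 lists that follow stand beside the same shares. Of 29 deacetylase co-repressor subunits, 25 were in both, among them Ncor1, Sin3b and Mta1, none was knockout-only, and Gps2 was control-only. Of 32 acetyltransferase complex subunits, 24 were in both, including the scaffold gene Trrap, and the X-linked Msl3 was knockout-only. Of 19 methyltransferase partner subunits, 13 were in both, including the PRC2 core genes Eed and Suz12, with Aebp2, Mllt3 and Wiz knockout-only. Of 27 other enzymes of histones, 16 were in both, among them Ep300, Crebbp, Hat1 and Prdm9, and Mecom, Phf2 and Phf8 were knockout-only.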

How the data were processed

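ATAC-seq peak lists of pachytene spermatocytes were compared, 1 per genotype. Each deposited list, made by the authors, has 3 columns (chromosome, start and end in bp), and these positions are the only values. Per the submitters' processing notes, MACS2 2.2.4, Picard 2.20.7, Bowtie2 2.3.4.3 and cutadapt 2.5 were used, with the build mm10. The sources used here do not give their settings, the calling threshold, read shifting or whether a list pools replicates. The lists have 29656 and 24167 lines (knockout and control), and each interval was counted once. Genes came from RefSeq tables of GRCm38.p6 (mm10 on primary chromosomes), with the strand from the promoter table. The gene table's gene ends are the outermost of all models. Where several peaks lay in a window the widest stood for the gene. No test was run. Python 3.11.15, pandas 2.3.3, numpy 2.4.6, scipy 1.17.1 and matplotlib 3.10.9 were used. Gene assignment was checked on 400 genes with planted intervals, of which 400 were placed in their class, and bedtools 2.31.1 gave the same 8402 and 7274 genes with a peak. The members, partner lists and naming rule were chosen with earlier results of these data known. By that rule every member is counted, members in 1 list alone, on X or Y, among the 5 widest per list or among the 5 largest and 5 smallest width ratios are named with their values, and others are named with their class or widths.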

Additional observations from a re-analysis of the deposited data

How the results depend on the processing

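No paired analysis was possible because there is 1 list per genotype, and for the same reason no replicate could be left out. The main counts were 45 members in both lists, 14 knockout-only, 1 control-only and 15 in neither. With intervals listed at least 2 times they were 29, 8, 9 and 29, fewer intervals entering by construction, and 25 members changed class. With peaks anywhere in the gene, 0 were control-only, 7 in neither, 55 in both lists and 13 knockout-only. Windows of 500 bp and 3 kb, intervals of at least 300 bp, equal numbers of the widest intervals, merging within 200 bp and the gene start alone (63 members) left 35 to 50 members in both lists, 11 to 14 knockout-only and 1 control-only. These counts do not hold the same genes throughout. With intervals of at least 300 bp the control-only gene was Hdac3 and Hdac7 was in neither. At 500 bp Kat6a became knockout-only and Ehmt2 left, and at 3 kb Kdm6b became knockout-only and Nsd1 was in both lists. With any start in the promoter table, an alternative chosen after seeing the data, the 63 members gave 39, 10, 1 and 13. There Hdac4, Kat5, Kdm2b, Kdm4c and Kdm6a moved to both lists, and Setd5, Sirt4 and Sirt7 to neither. The median log2 width ratio lay between 0.08 and 0.10 in its alternatives. The depth behind each list is unknown, so a missing peak does not show a closed site.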
